A study of Caenorhabditis elegans with 12 samples.

Results

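The meiotic chromosome axis and synapsis genes were followed here as 10 genes taken by name: syp-1, syp-2, syp-3, him-3, htp-1, htp-2, htp-3, rec-8, spo-11 and msh-5. All 10 were found among the 45836 genes of the deposited count table, and all 10 passed the filter on low counts. RNA was sequenced from whole gravid adult Caenorhabditis elegans in 4 groups of 3 libraries. Control animals were wild-type N2 kept at 20 °C. F0 animals were N2 moved to 25 °C as L4 larvae, kept there for 5 generations, and collected 54 to 56 h after eggs were plated. F3 animals descended from part of that population, returned to 20 °C as L4 larvae for 3 generations, and were collected at 72 to 76 h. The mutant group was strain MT17463, set-25(n5021) III, kept at 20 °C and collected at 72 to 76 h. set-25 encodes a methyltransferase of lysine on histone H3; what the allele changes in the gene is not stated in the labels. Each replicate pooled 3 plates of whole animals. F0 differed from F3 and the mutants in temperature and in hours since plating, and the labels give no hours for control. The mutants carry a later series of library numbers. These cannot be told apart from the groups.

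In meiotic prophase each chromosome folds along a protein axis, pairs with its homolog and is joined to it by the synaptonemal complex. In the worm the axis holds meiotic cohesin, of which REC-8 is a kleisin subunit. The axis also holds 4 proteins of the HORMA domain family: HTP-3, HIM-3, HTP-1 and HTP-2. SYP-1, SYP-2 and SYP-3 belong to the central region that bridges the aligned axes. SPO-11 is the topoisomerase-like enzyme that makes the double-strand breaks from which recombination starts. MSH-5 is a MutS family protein that acts with its partner HIM-14 in forming crossovers. In a gravid hermaphrodite these genes are transcribed in germ cells, and their RNA is also laid down in oocytes, so a whole-animal library sums the gonad and the embryos that the mother carries. In such a library, fewer germ cells and less RNA per cell cannot be told apart.

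The gene counts per library ran from 27977220 to 35192871 in the 9 wild-type libraries and were 21675178, 26069551 and 9378988 in mutant libraries 1, 2 and 3. Ribosomal RNA genes took 2.49 to 4.04% of gene counts in wild type, and 7.06%, 3.35% and 13.7% in mutant libraries 1, 2 and 3. Differences between replicates exceeded counting noise, with a chi-square per degree of freedom of 4.13 to 5.88 within control and F0, 19.7 to 43.5 within F3 and 68.6 to 266 within the mutants. In the mutants the transcript of set-25 stood at 59.1, 59.3 and 50.7 CPM (the gene's count relative to the library total, scaled by TMM factors), against 69.8, 65.9 and 66.8 CPM in control. That was lower (log2 -0.24, SE 0.07, Benjamini-Hochberg adjusted p 0.0328, edgeR quasi-likelihood), a call lost in 5 of the 6 fits without 1 library. The same transcript was at 53.1, 50.9 and 55.6 CPM in wild-type F0 animals (log2 -0.34 against control, SE 0.07, adjusted p 0.00189 by edgeR), so its level does not set the mutants apart. An adjusted p under 0.05 is what a call means throughout.

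The 10 genes were among the steadier transcripts of the series. Their summed level was 724 to 734 CPM in control, 727 to 748 CPM in F0, 727 to 757 CPM in F3 and 743 to 761 CPM in the mutants. The highest group mean exceeded the lowest by a median of 1.08-fold for the 10 genes, against a median of 1.15-fold over all genes with a mean of at least 10 CPM. rec-8 was the steadiest, with group means within 1.03-fold of each other, and 2.72% of those genes had a range as small. spo-11 was the exception, at 1.25-fold, a range that 76.5% of those genes did not exceed. The median of the 10 coefficients of variation (CV) among replicates was 2.48% in control, 2.42% in F0, 4.49% in F3 and 4.91% in the mutants. Counting alone gives 1.43 to 3.82% at the mean count of each gene in each group, and more in a library with fewer counts than its group mean. Single counts ran from 271.5 to 4972 per gene and library.

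**Figure D1:**
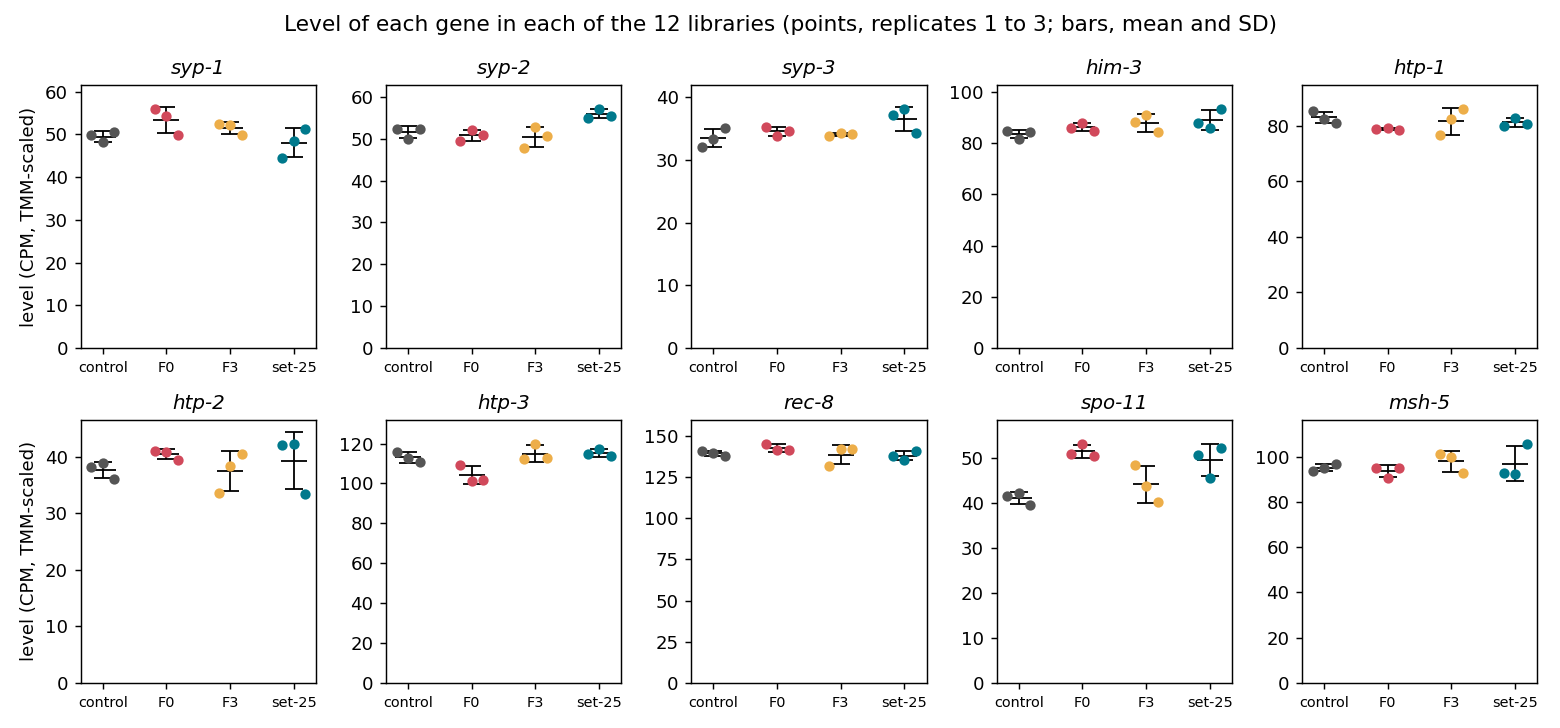
Level of each of the 10 genes in CPM (vertical axes from 0) in the 3 libraries of each group, with the mean and SD as bars. The points of spo-11 lie at 50.5 to 53.1 CPM in F0 against 39.6 to 42.2 CPM in control, while those of rec-8 lie between 132 and 145 CPM in all 12 libraries.

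To rank the genes by level, CPM was divided by length. Per kilobase of coding length in control, him-3 led with 95.8 ± 1.99 CPM per kb (SD, n = 3). It was followed by syp-2 with 80.6 ± 2.27 and htp-1 with 78.5 ± 1.95 CPM per kb, whose libraries overlapped. rec-8 came next with 59.5 ± 0.68 CPM per kb. htp-3 with 50.99 ± 1.15 and syp-3 with 49.9 ± 2.18 CPM per kb overlapped. The next 3, htp-2 with 35.7 ± 1.36, syp-1 with 33.8 ± 0.83 and spo-11 with 32.2 ± 1.06 CPM per kb, each overlapped its neighbour in that order. msh-5, the longest of the 10 coding sequences, was lowest with 23.2 ± 0.41 CPM per kb. The first 4 places and the last were the same in all 4 groups. spo-11 stood ninth in control and F3 and seventh in F0 and the mutants. Per kilobase of merged exons syp-1, whose annotated exons run to 3.05 kb, stood below msh-5, and syp-2 stood in the fifth place in place of the second in control.

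The annotation places exons of 4 of the genes over those of another gene, and counts in such stretches are uncertain. For overlaps on opposite strands, this is because the strand setting of the counting is not given. No strand setting separates an overlap on the same strand. syp-1 shares exon sequence with F13A7.14 on the same strand, which was at 34.4 to 39.4 CPM in the 12 libraries. On the opposite strand syp-3 overlaps mrt-1 (51.4 to 58.7 CPM), him-3 overlaps prkl-1 (1.15 to 3.41 CPM) and spo-11 overlaps enpl-1. enpl-1, which encodes an endoplasmic reticulum chaperone, is listed as T05E11.3 and was at 543 to 707 CPM. The libraries were made with a strand-specific kit, per the labels' protocols.

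syp-1, syp-2 and syp-3 did not pass the test in any of the 4 comparisons. syp-1 was at 49.9, 48.2 and 50.5 CPM in control, and at 56.0, 54.3 and 49.95 CPM in F0. In F3 it was at 52.4, 52.2 and 49.8 CPM, and in the mutants at 44.4, 48.5 and 51.3 CPM. Each group overlapped control, and the mutant libraries spread most. syp-2 was at 52.3, 49.8 and 52.4 CPM in control, at 49.4, 52.1 and 50.8 CPM in F0, and at 47.9, 52.7 and 50.7 CPM in F3. In the mutants all 3 libraries, at 55.04, 57.10 and 55.52 CPM, lay above every control library. The difference from control was log2 0.12 (SE 0.05, 95% interval 0.02 to 0.22, adjusted p 0.0949 by edgeR), and it was called only with the 6 libraries compared in a fit of their own (log2 0.13, adjusted p 0.0417). syp-3 was at 32.1, 33.4 and 35.1 CPM in control, 35.3, 33.8 and 34.6 CPM in F0, and 33.8, 34.3 and 34.1 CPM in F3. Mutant libraries 1 and 2 were higher at 37.2 and 38.2 CPM and library 3, at 34.3 CPM, was inside the control range (log2 0.14, SE 0.05, adjusted p 0.0990 by edgeR). Without library 3 the difference was called, at log2 0.17 (adjusted p 0.047).

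Among the HORMA genes, htp-3 was lower in F0 by a small amount and the other 3 did not pass the test. htp-3, whose product is needed to load the other HORMA proteins onto the axis, was at 115.7, 112.9 and 110.6 CPM in control and at 109.4, 101.3 and 102.0 CPM in F0. All F0 libraries lay below all control libraries, the nearest by about 1 CPM. The fold change was 0.92 (95% interval 0.87 to 0.98, log2 -0.12, SE 0.04, adjusted p 0.0333 by edgeR, n = 3 and 3). The call was lost in 4 of the 6 fits without 1 library: without control replicates 1 (log2 -0.11) and 2 (-0.13), and without F0 replicates 2 (-0.11) and 3 (-0.11). In F3 the gene was at 112.4, 120.0 and 112.7 CPM, above every F0 library. F3 exceeded F0 by log2 0.14 (SE 0.04, adjusted p 0.0107 by edgeR), a call that held in every alternative tried. Mutant libraries stood at 114.8, 117.3 and 113.6 CPM and overlapped control.

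him-3 encodes a core axis protein. It was at 84.9, 81.6 and 84.3 CPM in control, 86.0, 88.1 and 84.9 CPM in F0, and 88.4, 91.0 and 84.2 CPM in F3. The mutant libraries, at 88.1, 85.8 and 93.4 CPM, lay above control, with a difference that did not pass the test (log2 0.09, SE 0.04, 95% interval -0.0034 to 0.17, adjusted p 0.179 by edgeR). The opposite-strand gene prkl-1 rose 2.09-fold in F0 (adjusted p 0.000717 by edgeR), from 1.31 to 1.46 CPM in control to 2.39 to 3.41 CPM in F0. him-3 was at log2 0.05 there (SE 0.04), and the part of prkl-1 in its counts was not tested.

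htp-1 and htp-2 encode closely related HORMA proteins, and reads from near-identical stretches can be divided between them, so the level of each is uncertain. htp-1 was at 85.2, 82.6 and 81.1 CPM in control and 78.8, 79.2 and 78.4 CPM in F0. htp-2 was at 38.2, 38.9 and 36.1 CPM in control and 41.1, 40.9 and 39.5 CPM in F0. The F0 libraries lay wholly below control for htp-1 and wholly above it for htp-2, and neither passed the test (log2 -0.07, SE 0.04, adjusted p 0.21, and 0.10, SE 0.07, adjusted p 0.337, by edgeR). Expressed as the share of htp-1 in the counts of the pair, control libraries held 69.0, 68.0 and 69.2% and F0 libraries 65.7, 66.0 and 66.5%. The difference of 2.66 percentage points, F0 being lower, had a two-sided exact permutation p of 0.1, and no smaller value can be reached with 3 libraries a group. F3 libraries held 69.5, 68.1 and 68.0% (exact permutation p 1). Mutant libraries 1 and 2 held 65.6 and 66.2%, and library 3, the shallowest of the series with 271.5 counts of htp-2, held 70.7% (exact permutation p 0.4). F3 library 1 had the lowest level of both genes in that group, at 76.5 CPM for htp-1 and 33.6 CPM for htp-2, and library 3 the highest, at 86.0 and 40.4 CPM. Without F3 library 1, htp-1 was called higher in F3 than in F0 (log2 0.11, adjusted p 0.0388 by edgeR). In a fit of control and F0 alone it was called lower in F0 (log2 -0.08, adjusted p 0.0434).

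**Figure D2:**
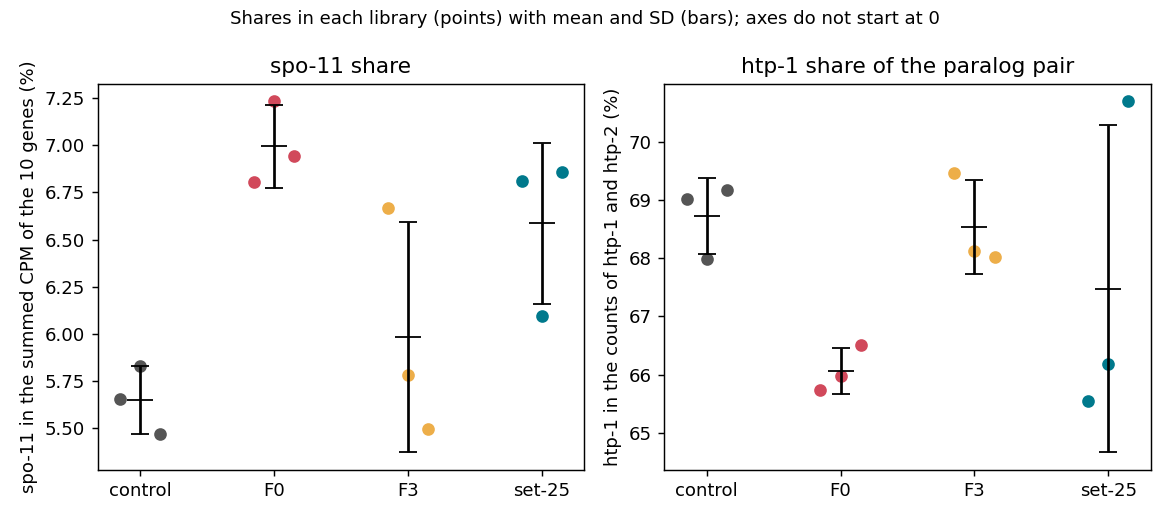
Left, share of spo-11 in the summed CPM of the 10 genes (percent); right, share of htp-1 in the counts of htp-1 and htp-2 (percent), for each library with mean and SD; axes do not start at 0. The F0 libraries stand apart from control in both, at 6.81 to 7.23% against 5.47 to 5.83% for spo-11 and at 65.7 to 66.5% against 68.0 to 69.2% for htp-1. For spo-11 the mutant libraries, at 6.81, 6.10 and 6.86%, also lie above control, as does F3 library 1 at 6.67%.

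rec-8 did not pass the test anywhere. Control libraries were at 140.9, 139.4 and 137.8 CPM, F0 libraries at 145.3, 141.3 and 141.5 CPM, F3 libraries at 131.8, 142.1 and 141.8 CPM and mutant libraries at 137.8, 135.5 and 140.7 CPM. F0 lay just above control without overlap, by log2 0.03 (SE 0.04, 95% interval -0.04 to 0.11, adjusted p 0.511 by edgeR). F3 library 1 was the lowest of the 12.

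spo-11 was the member that moved most. It was at 41.5, 42.2 and 39.6 CPM in control and at 50.9, 53.1 and 50.5 CPM in F0, with no overlap. It rose 1.25-fold in F0 (95% interval 1.14 to 1.37, log2 0.32, SE 0.06, adjusted p 0.000809 by edgeR, n = 3 and 3). The rise was called in every alternative tried, with a log2 of 0.29 to 0.33 when any 1 library was left out. In F3 it was at 48.4, 43.7 and 40.3 CPM, so that libraries 1 and 2 lay above all controls, library 3 lay among them, and all were below F0. F3 was lower than F0 (log2 -0.22, SE 0.06, adjusted p 0.012 by edgeR), a call lost without F0 replicate 2 (-0.19) and without F3 replicates 2 (-0.20) and 3 (-0.16). F3 against control gave log2 0.10 (SE 0.06, 95% interval -0.03 to 0.24, adjusted p 1 by edgeR).

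In the set-25 mutants spo-11 was at 50.6, 45.4 and 52.2 CPM, each above every control library. It rose 1.19-fold (95% interval 1.08 to 1.31, log2 0.25, SE 0.07, adjusted p 0.0124 by edgeR, n = 3 and 3). The call was lost without control replicate 3 (log2 0.22, adjusted p 0.0652) and without mutant replicate 1 (0.23, adjusted p 0.0686). With mutant libraries 1 and 3, the higher in ribosomal RNA, both left out, the remaining library gave log2 0.14 (adjusted p 0.411), on the assumption that it varies like the other groups. F0 and the mutants were set against the same control libraries, so these results for spo-11 are not independent of each other.

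The gene that overlaps spo-11 on the opposite strand, enpl-1, was lower in F0 and was not called in the mutants. Its part in the spo-11 counts was not tested. Transcripts of enpl-1 were at 678, 642 and 672 CPM in control and at 585, 543 and 584 CPM in F0 (log2 -0.22, SE 0.05, adjusted p 0.00348 by edgeR), the direction opposite to that of spo-11. In the mutants enpl-1 was at 674, 679 and 707 CPM (log2 0.05, SE 0.05, adjusted p 0.554 by edgeR).

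msh-5 did not pass the test in any comparison. It was at 93.5, 95.2 and 96.9 CPM in control, 95.3, 90.5 and 94.9 CPM in F0, and 101.5, 99.8 and 92.7 CPM in F3. In the mutants libraries 1 and 2 were at 93.0 and 92.2 CPM and library 3 at 105.9 CPM, the highest of the 12. The mutant difference changed sign without that library, from log2 0.02 to -0.04.

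In F0 against control 8 of the 10 genes were not called, with 1 higher (spo-11) and 1 lower (htp-3). Over all 14466 genes tested, 28.7% were called in this comparison, 16.7% higher and 12.05% lower. No test of the members' count against that background was made. The 8 genes not called had log2 values from -0.07 to 0.11, and their 95% intervals together reached from 0.89-fold to 1.19-fold. Groups did not overlap for 5 of the 10, where 50.4% of all genes did not. The median log2 of the 10 was 0.04, against 0.01 over all genes.

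**Figure D3:**
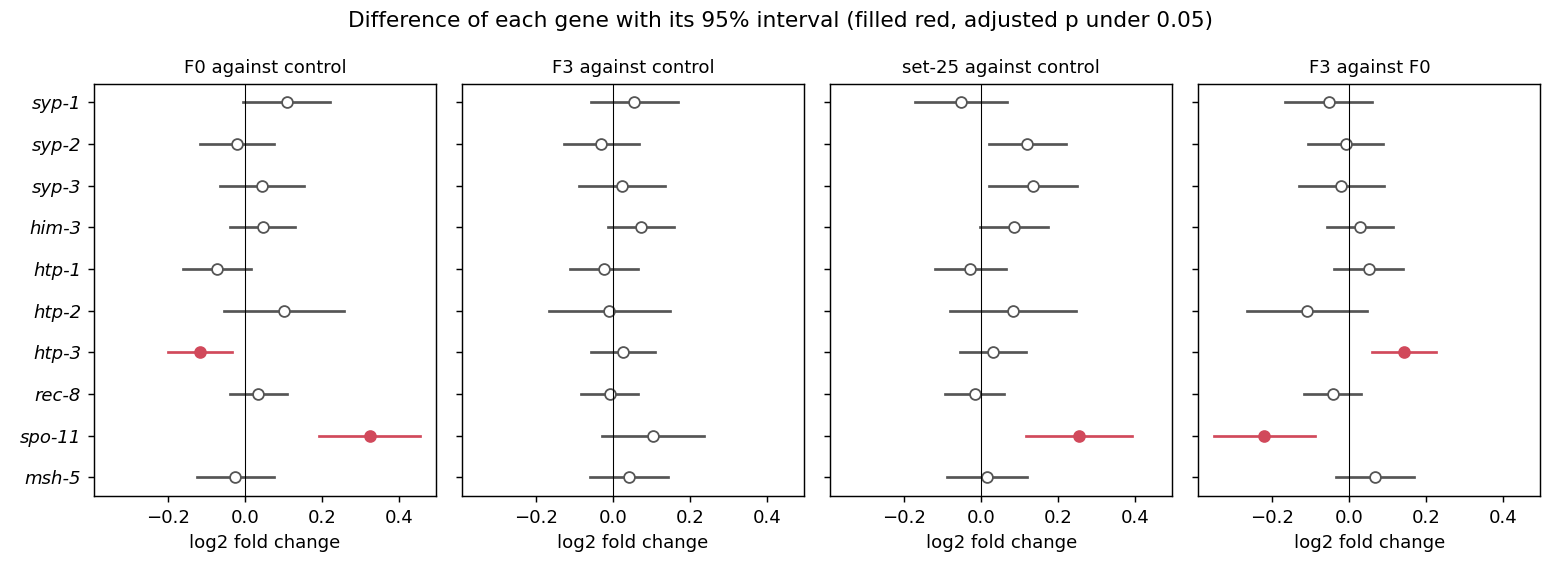
Log2 fold change of each gene (horizontal axes, points) with its 95% interval (lines) in the 4 comparisons; filled red points have an adjusted p under 0.05. spo-11 is called in 3 panels and htp-3 in 2, and every interval of F3 against control includes 0.

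Other genes of the meiotic programme were measured in the same comparison. The 58 further genes tested came from lists for the synaptonemal complex, axis and cohesin, double-strand breaks, crossover and repair, and pairing and checkpoint. Of these, 14 were lower in F0 and 2 were higher. Over all genes 28.7% were called, 12.05% lower and 16.7% higher, and the count of the 58 was not tested against that background. The median log2 of the 58 was -0.08, against 0.01 over all genes. Without 1 library the count of 16 ran from 9 to 15, with 10 without control replicate 1 or 2 and 9 without F0 replicate 2, and it was 32 with the 6 libraries compared in a fit of their own. By list, the calls were 1 lower of 5 for the synaptonemal complex, 2 lower of 10 for axis and cohesin, 2 lower and 1 higher of 10 for double-strand breaks, 5 lower and 1 higher of 21 for crossover and repair, and 4 lower of 12 for pairing and checkpoint.

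The lower genes lay in several steps of the process. prom-1, which encodes an F-box protein needed for homolog pairing, was at 80.1, 76.1 and 77.2 CPM in control and 62.2, 63.1 and 63.7 CPM in F0 (log2 -0.30, SE 0.04, adjusted p 3.88e-05 by edgeR). mlh-1, a mismatch repair gene, was at 82.7, 79.3 and 77.2 CPM in control and 66.4, 67.3 and 64.2 CPM in F0 (-0.27, SE 0.05). pch-2, which encodes an ATPase that remodels HORMA proteins, was at 70.3, 67.5 and 66.8 CPM in control and 59.6, 60.0 and 57.3 CPM in F0 (-0.21, SE 0.04). For these 3 genes the F0 libraries lay well below control. syp-4, another central region gene, was at 122.8, 122.6 and 129.3 CPM in control and 107.2, 109.7 and 110.2 CPM in F0 (-0.20, SE 0.04). mre-11, a nuclease gene of break repair, fell by 0.16 on the log2 scale (SE 0.04), as did the kleisin gene coh-3 (-0.16, SE 0.05), whose reads can be shared with its paralog coh-4 and whose call was lost without control replicate 2 (-0.14). him-6, which encodes a RecQ helicase, fell by 0.14 (SE 0.04).

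The 2 further genes that were higher in F0, chosen after their values were seen, were dsb-1 and him-14. dsb-1, whose product is needed for break formation by SPO-11, is listed as F08G5.1 and was at 56.9, 55.9 and 61.2 CPM in control and 65.9, 64.5 and 64.1 CPM in F0 (log2 0.16, SE 0.05, adjusted p 0.0128 by edgeR). him-14, which encodes the MutS partner of MSH-5, was at 57.2, 55.1 and 54.9 CPM in control and 62.3, 61.7 and 60.6 CPM in F0 (log2 0.14, SE 0.04, adjusted p 0.0161 by edgeR), while msh-5 was at -0.03 (SE 0.05, 95% interval -0.13 to 0.08). For both genes the F0 libraries lay above control, and both calls were lost in some fits without 1 library. That of dsb-1 was lost without control replicates 1 (log2 0.14) and 2 (0.12) and without F0 replicates 1 (0.14) and 2 (0.15). That of him-14 was lost without control replicates 2 and 3 and F0 replicate 1 (0.12 in each) and F0 replicate 2 (0.13), and without the low-count filter (0.13).

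Markers of other germ cells and tissues were counted in F0 as well. Of all genes tested 28.7% were called there, 16.7% higher and 12.05% lower. Of 25 germ line marker genes, 9 were lower and 2 higher (median log2 -0.07), and their summed level was 5071 to 5222 CPM against 5290 to 5328 CPM in control. Of 20 oocyte and eggshell genes 10 were lower and 1 higher, with a sum of 11202 to 11600 CPM against 12294 to 12607 CPM. Of 40 sperm genes tested 39 were higher and none lower (40 of 48 in the table passed the filter), with a sum of 218 to 299 CPM against 15.6 to 55.6 CPM. The filter by group can keep a gene through the F0 libraries alone, which can raise the share called in such a list. Early zygotic genes of carried embryos were higher in 3 of 13 tested. The sum over the 17 in the count table was 32.7 to 37.1 CPM against 23.2 to 28.8 CPM. Intestinal markers were lower in 7 of 12 and higher in 1, with a sum of 32177 to 37250 CPM against 39806 to 43114 CPM. Muscle markers were higher in 3 of 10 and lower in 0, with a sum of 3898 to 4264 CPM against 3200 to 3610 CPM. Epidermal markers were higher in 5 of 9 tested and lower in 0. The sum over the 10 in the count table was 1575 to 1700 CPM against 1257 to 1289 CPM. Neuronal markers were lower in 1 of 11, with a sum of 1010 to 1023 CPM against 1066 to 1086 CPM. No listed marker was at 0 in all 12 libraries, and the part of these shifts in the results for spo-11, htp-3 and the 16 further genes was not tested.

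**Figure D4:**
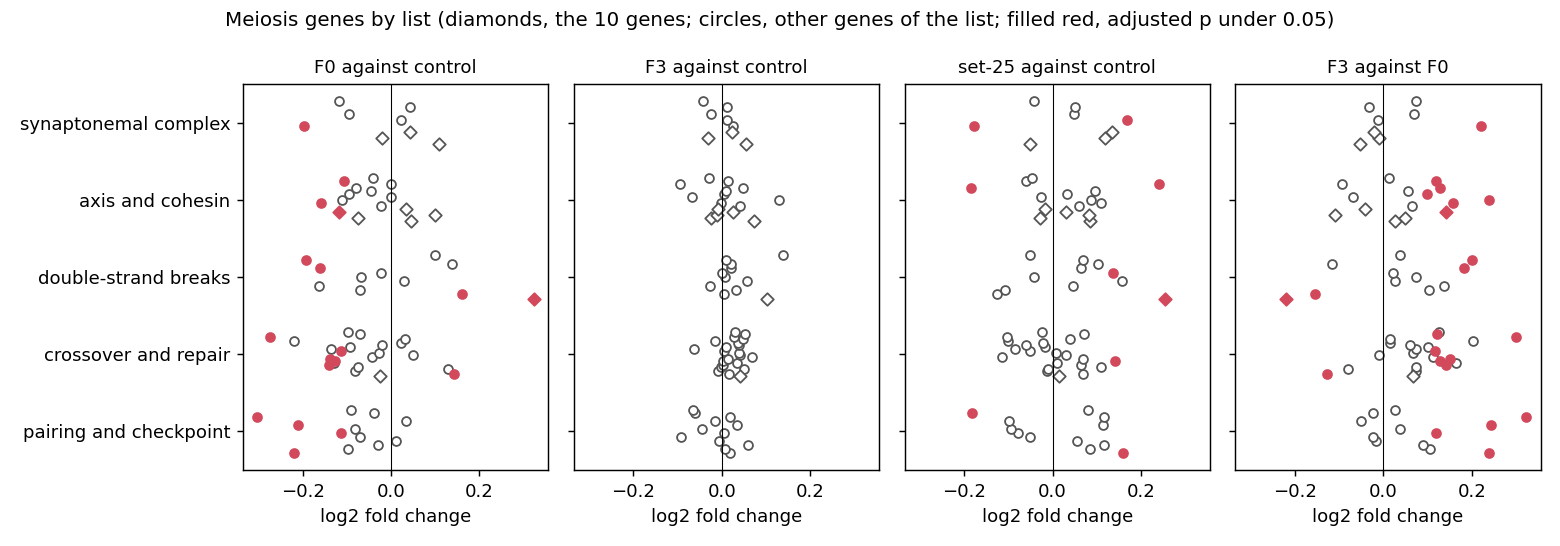
Log2 fold change (horizontal axes) of the genes of 5 meiosis lists in the 4 comparisons; diamonds are the 10 genes and circles the other members of each list, filled red with an adjusted p under 0.05. In F0 against control 14 circles are lower and 2 higher, in F3 against control none is filled, and in F3 against F0 18 circles are higher and 2 lower.

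At 3 generations after the return to 20 °C, the test called 0 of the 10 genes against control, by edgeR or by DESeq2, and 0 had an unadjusted p under 0.05. Over all genes 0.263% were called. Log2 values of the 10 ran from -0.03 (syp-2) to 0.10 (spo-11), and the 95% intervals together reached from 0.89-fold to 1.18-fold. Groups overlapped for all 10, where 9.21% of all genes did not overlap. Of the 58 further meiosis genes 0 were called by edgeR or by DESeq2, and 1 had an unadjusted p under 0.05. That gene, named after its value was seen, was coh-4 at log2 0.13 (SE 0.05, adjusted p 0.893 by edgeR). Germ line markers summed to 5013 to 5516 CPM, with library 1 the lowest, and oocyte markers to 11336 CPM in library 1 and 12730 and 12896 CPM in the others. Within F3, library 1 had the lowest level of syp-2, syp-3, htp-1, htp-2, htp-3 and rec-8 and the highest of syp-1, spo-11 and msh-5.

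Set directly against F0, 2 members were called in F3: htp-3 was higher and spo-11 lower. The background was 30.4% of all genes called, 13.1% higher and 17.3% lower. Groups did not overlap for 2 of the 10, where 41.6% of all genes did not. The 8 other members had log2 values from -0.11 (htp-2) to 0.07 (msh-5), with 95% intervals that together reached from 0.831-fold to 1.123-fold. Of the 58 further genes 18 were higher in F3 and 2 lower, with a median log2 of 0.07 against -0.01 over all genes. prom-1 led the higher ones (log2 0.32, SE 0.04, adjusted p 2.06e-05 by edgeR), at 77.7, 82.3 and 76.6 CPM in F3. With it were mlh-1 (0.30, SE 0.05), pch-2 (0.24, SE 0.04), coh-4 (0.24, SE 0.05), syp-4 (0.22, SE 0.04), com-1, a gene of break resection (0.20, SE 0.06), mre-11 (0.18, SE 0.04) and him-6 (0.15, SE 0.04). The 2 lower ones were dsb-1 (-0.16, SE 0.05), a call lost in 5 of the 6 fits without 1 library, and him-14 (-0.13, SE 0.04), a call lost in 4 of the 6, with DESeq2 (-0.11), without the low-count filter (-0.13) and with the 6 libraries compared in a fit of their own (-0.12). Without 1 library 12 to 24 of the 58 were called, with 12 without F0 replicate 2, where com-1 also lost its call (0.16), and 13 with the 6 libraries compared in a fit of their own. This comparison shares the F0 libraries with that of F0 against control. Marker lists were counted in this comparison too. Germ line markers were higher in 10 of 25 and lower in 2, and oocyte and eggshell markers were higher in 12 of 20 and lower in 1. Sperm markers were lower in 38 of 40, with a median log2 of -3.18, and early zygotic markers were lower in 3 of 13. In both lists the filter by group can keep a gene through the F0 libraries alone. Intestinal markers were higher in 7 of 12 and lower in 2, muscle markers lower in 4 of 10, epidermal markers lower in 6 of 9, and neuronal markers called in 0 of 11 by edgeR (1 at an unadjusted p under 0.05). Their part in the results for spo-11, htp-3 and the 20 further genes was not tested.

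The set-25 mutants had 1 of the 10 genes called, spo-11, which was higher, where 17.04% of all genes were called, 8.90% higher and 8.14% lower. The 9 others had log2 values from -0.05 (syp-1) to 0.14 (syp-3), and their 95% intervals together reached from 0.89-fold to 1.19-fold. Mutant libraries lay wholly above control for 3 of the 10 (syp-2, him-3 and spo-11) and wholly below for none, where groups did not overlap for 39.7% of all genes. Of the 58 further genes 5 were higher and 3 lower, with a median log2 of 0.03. mau-2, which encodes a cohesin loading factor, was at 69.6, 68.9 and 70.9 CPM against 61.4, 59.8 and 55.7 CPM in control (log2 0.24, SE 0.05, adjusted p 0.00454 by edgeR). The central region gene syp-5, listed as Y54E10A.12 (0.17, SE 0.05), him-8, whose zinc finger protein binds the pairing centre of the X chromosome (0.16, SE 0.05), rmh-1, listed as M01E11.3 (0.14, SE 0.04), and xnd-1 (0.14, SE 0.04) were also higher. Of these 5, mau-2 kept its call without any 1 library, and the 4 others lost theirs without at least 2 of the libraries in turn. Those 4 calls were also lost without the low-count filter (log2 0.14 for syp-5, 0.13 for him-8 and 0.11 for rmh-1 and xnd-1), and that of xnd-1 with DESeq2 (0.14, adjusted p 0.0513).

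Lower in the mutants were smc-3, which encodes a core subunit of cohesin, at 148.7, 142.2 and 143.9 CPM against 165.4, 164.6 and 164.4 CPM in control (log2 -0.19, SE 0.04, adjusted p 0.00334 by edgeR), fkb-6 (-0.18, SE 0.04) and syp-4 (-0.18, SE 0.05). The call of syp-4 was lost without control replicate 3 (-0.16) and without mutant replicate 1 (-0.14). Within the central region list, syp-4 and syp-5 were thus called in opposite directions. Without 1 library 4 to 8 of the 58 genes were called, with 4 without control replicates 2 and 3 and without mutant replicate 1, and 5 without mutant replicate 2, and 13 were called with the 6 libraries compared in a fit of their own. With mutant libraries 1 and 3 left out 0 of the 58 and 0 of the 10 were called, against 742 of all genes.

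Markers of germ cells and of other tissues were counted in the mutants as well. The background was 17.04% of all genes called, 8.90% higher and 8.14% lower. Germ line markers were higher in 9 of 25 and lower in 3, and their sum of 5345 to 5452 CPM lay above the 5290 to 5328 CPM of control. Sperm markers were called in 0 of 40 tested by edgeR, with 2 at an unadjusted p under 0.05. The sum over the 48 in the count table, 23.6 to 88.7 CPM, overlapped control. Oocyte and eggshell markers were higher in 3 of 20 and lower in 1, with an overlapping sum of 12148 to 12792 CPM, and early zygotic markers were higher in 1 of 13. Intestinal markers were higher in 3 of 12 and lower in 1, and their sum of 47673 to 51360 CPM lay above control. Epidermal markers were lower in 3 of 9 tested, and the sum over the 10 in the count table, 979 to 1171 CPM, lay below control. Neuronal markers were higher in 3 of 11 and lower in 2, with a sum of 937 to 975 CPM below control. Muscle markers were higher in 1 of 10 and lower in 1. The part of these shifts in the result for spo-11 and in those for the 8 further genes was not tested.

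The 10 genes did not rise and fall as a unit across the 12 libraries. Each gene's log2 CPM correlated with the mean of the other 9 at r between -0.19 (syp-1) and 0.47 (syp-2). These values are a description over 12 libraries, which share their scaling and, within a group, their strain and temperature. The highest single value was that of him-3 and msh-5 (r = 0.61) and the lowest that of htp-2 and msh-5 (r = -0.87). Mutant library 3 bears on both pairs, as it held the highest him-3, the highest msh-5 and the lowest htp-2. The 5 genes most like the mean profile of the 10, among those with at least 10 CPM, were C14B1.9 (r = 0.87), M142.5 (r = 0.87), H20J04.4 (r = 0.85), rsd-6 (r = 0.85) and panl-2 (r = 0.84).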

How the data were processed

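The authors deposited a single table with a column for each of 12 libraries. Its values are expected counts, which the authors deposited without normalization: 22.4% were not whole (tolerance 1e-06). Rows comprise 45836 genes and 53925 repeat copies, 99761 in all. Per the submitters' processing notes, the tools were TopHat2 2.1.0, featureCounts 1.5.1 and DESeq2 1.8.1, whose settings are not stated there. Neither the build nor the strand setting nor the handling of multiply matching reads is known from the labels, so no coordinates are printed. Libraries were strand-specific, from total RNA depleted of ribosomal RNA, per the labels' protocols.

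Repeat copies were left out, and expected counts were rounded before testing. All 12 libraries entered 1 fit of edgeR 4.0.16 in R 4.3.3 (quasi-likelihood, robust, TMM scaling, filterByExpr by group, 1 term per group). It tested 14466 genes, two-sided, with Benjamini-Hochberg adjustment over all of them, and genes under 0.05 were called. Standard errors and 95% intervals come from the quasi-likelihood F. Shares within a gene pair were compared by exact permutation. Alternatives were DESeq2 1.42.0, RLE scaling, no filter, no rounding, a fit of 6 libraries, a replicate block, removal of 8 ribosomal RNA genes, and leaving out libraries. The fit was also run on counts simulated with its own estimate of spread for each gene, equal in all groups. That run cannot show how the fit handles the wider spread of the mutants.

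Replicates are separate biological replicates per the labels. Exon and coding lengths, overlaps and gene names came from Ensembl and RefSeq annotations of WBcel235, which may differ from the authors' annotation. Names matched for 221 of 224 list entries. No sequences are shown because none were used here. The 10 genes and all lists were chosen with earlier results of these data known. Genes named by rule were the 10, set-25, the 2 called genes with the smallest p per list and comparison, and the 5 most alike in pattern. Outside it, dsb-1, him-14 and coh-4 in F3 were named after their values were seen, and F13A7.14, mrt-1, prkl-1 and enpl-1 because their exons overlap those of a member.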

Additional observations from a re-analysis of the deposited data

How the results depend on the processing

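The rise of spo-11 in F0 and the excess of htp-3 in F3 over F0 were called under every alternative tried. The calls of htp-3 in F0 and of spo-11 in the mutants and in F3 against F0 were each lost in some fits without 1 library, with the direction kept. The count of members called ran from 1 to 2 in F0, was 0 in F3, and ran from 0 to 2 in the mutants and from 1 to 3 in F3 against F0 without 1 library. In the mutants it was 2 with only the 6 libraries compared and 0 with mutant libraries 1 and 3 left out. The count over all genes in F3 against control, 38, was 96 with no low-count filter, 15 with only the 6 libraries compared and 20 to 1.0e+02 without 1 library. That in the mutants, 2465, was 742 with mutant libraries 1 and 3 left out and 1595 to 1918 without 1 library. Among members not called, 22 of 490 recomputed values changed sign, the largest at 0.066 in size, and 4 became called. For msh-5 in the mutants the log2 was -0.013 with no filter, -0.049 with mutant libraries 1 and 3 left out and -0.039 to 0.041 without 1 library, and for syp-1 -0.088 to 0.0028 without 1 library. For syp-2 in F3 against F0 it was 0.0013 with RLE scaling, 0.0037 with DESeq2 and -0.031 to 0.042 without 1 library, for syp-3 -0.025 to 0.0076 and for rec-8 -0.057 to 0.0076. In F3 against control without 1 library it was -0.064 to 0.0084 for syp-2, -0.0036 to 0.058 for syp-3, -0.063 to 0.023 for htp-1, -0.066 to 0.066 for htp-2, -0.0069 to 0.044 for htp-3 and -0.028 to 0.029 for rec-8. The difference in htp-1 share was -3.03 to -2.43 percentage points in F0, -0.65 to 0.073 in F3 and -2.86 to -0.29 in the mutants without 1 library. The replicate numbers did not pair the samples: correlations of same-numbered libraries' deviations ran from -0.21 to 0.12. With the number as a replicate block the members called were 2, 0, 1 and 2 in the 4 comparisons, as without it, and the further meiosis genes called were 12, 0, 7 and 18 against 16, 0, 8 and 20, and the calls of xnd-1 (0.14) and of the set-25 transcript (-0.24) in the mutants were lost. Mutant library 3, with 9378988 gene counts, limited the precision of the mutant values.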
